A study of Mus musculus with 9 samples.

Results

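The transcripts of protein-coding genes that GENCODE annotates without a coding sequence hold exons of their own, and 465 of the 30998 SAFB peaks of this series (1.50%, 95% Wilson interval 1.37 to 1.64) had their midpoint in such an exon. A peak was taken when its midpoint lay in an exon of a same-strand protein-coding gene that belongs only to transcripts without a coding sequence, and in no same-strand coding sequence or untranslated region of a coding transcript (GENCODE M21, an annotation of mm10). Such sequence is called noncoding-only exon here. The 465 peaks were 16.3% (15.0 to 17.7) of the 2856 peaks placed in exons of coding genes, beside 1532 in coding sequence and 859 in untranslated regions. They lay in 418 genes.

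The series recovered RNA by immunoprecipitation (RIP-seq) from sonicated mouse embryonic stem cells of the line CAST/B6 Male Rosa26-RMCE, all induced with doxycycline for 3 days. SAFB1 antibody libraries came from 3 wild-type cultures, the parent and clones 20 and 44, and from 2 cultures, clones 4 and 13, in which both Safb and Safb2 were knocked out. Control libraries with IgG came from 2 wild-type cultures, the parent and clone 20. A FLAG antibody was used in double-knockout clone 13 carrying an eGFP plasmid (1 library) or a full-length SAFB1 plasmid (1 library). That library's genotype entry says wild type, against its title, which was used here. What was analysed is 1 peak list for the whole series; its entries are named for SAFB in wild-type cells and for no library. It holds no value per library, so depth is unknown, no antibody or genotype could be compared, and nothing below has replicates; intervals cover counting error only and treat peaks as independent. RNA abundance was not used, and more RNA of a transcript and more SAFB per RNA cannot be told apart in a list of positions. Nor can RNA of an isoform without a coding sequence be told from unspliced RNA of the same gene.

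SAFB and its close relative SAFB2 are nuclear proteins with an RNA recognition motif and a SAP domain that binds DNA, and they are known to associate with purine-rich RNA and with splicing factors. Introns are normally removed from the nascent transcript at a GT at their 5′ end and an AG at their 3′ end. A transcript that keeps an intron usually stays in the nucleus or is degraded, and several genes of splicing factors are known to use such isoforms to limit their own protein. GENCODE gives the type retained_intron to a transcript that holds intronic sequence of a coding transcript, and processed_transcript to other isoforms without an open reading frame.

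Some of the noncoding exons span a whole intron of a coding transcript, from 1 coding exon into the next. The ends of a few such introns are shown first, since these are the splice sites left unused in the isoform. Capitals mark the first and last pair of intron bases, and the outer 10 bases are exon. Safb, which encodes the immunoprecipitated protein (ENSMUSG00000071054.12, plus strand of chromosome 17 from 56584825 to 56606294), had 3 spanned introns with a peak. Intron 6 of 20 is 828 bases long (56597816 to 56598643), intron 7 is 402 bases (56599221 to 56599622) and intron 19 is 139 bases (56605658 to 56605796). Their ends, read 5′ to 3′ from the retained_intron transcripts themselves, are as follows.
Safb intron 6, 5′ end: ttggagccagGTactgtcaatgcagggctc
Safb intron 6, 3′ end: tattcctgttaaatccgtAGaaaatgagaa
Safb intron 7, 5′ end: agaaaatgagGTttgttgattctcagtcct
Safb intron 7, 3′ end: acactgtctcttgtctctAGttctgtggag
Safb intron 19, 5′ end: aggtggcaagGTgaggaccgggtgggagcc
Safb intron 19, 3′ end: acttgtgttttgtcttgcAGgtggtgagag

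The same ends are shown for Tra2b, which encodes a splicing activator, and for the spanned introns of Crtc1 and Dclre1b, which are among the longest with a peak (4690 and 3338 bases, against 757 in Tra2b). Crtc1 encodes a coactivator of the cAMP response and Dclre1b (Apollo) a nuclease that protects telomeres. Intron numbers throughout are those of the intron at the peak midpoint in the transcript with the longest coding sequence. The spanned intron printed can be a shorter one, of another coding transcript of the gene. For Tra2b the midpoint lay 33.3% along the gene, so the printed intron need not be intron 1 of that transcript. An exon of another coding transcript lies within the printed Tra2b intron, 9 bases from the midpoint.
Tra2b intron 1, chr16:22258229-22258985, minus strand, 5′ end: actacgctaaGTaattactagtctgtttat
Tra2b intron 1, 3′ end: taaatattgttttcttctAGtgtgctactc
Crtc1 intron 8, chr8:70393056-70397745, minus strand, 5′ end: gcaggccaggGTaaggcccccatgctgtcc
Crtc1 intron 8, 3′ end: agcccccttttcctttgtAGgtatgaacac
Dclre1b intron 3, chr3:103804056-103807393, minus strand, 5′ end: ataaaaattgGTgagcggtttccctttttc
Dclre1b intron 3, 3′ end: accccttggacataatttAGgactctatag

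Exons annotated to retained_intron transcripts held most of these peaks, and also most of the sequence, 16.1 of the 19.6 Mb of noncoding-only exon. Per Mb they held fewer peaks than processed_transcript exons, 20.6 against 38.5, with distance from coding exons not held equal. Median midpoint distances were 681 bases for peaks of retained_intron alone and 2608 for those of processed_transcript alone. The exon under the midpoint belonged to retained_intron transcripts alone for 321 peaks (69.0%, 64.7 to 73.1), to processed_transcript alone for 132 (28.4%, 24.5 to 32.6) and to both types for 10 (2.15%). A single peak in Ensa lay in a transcript of type TEC, which awaits experimental evidence, and a single peak in Gm4707 in a translated_processed_pseudogene. For 182 peaks the best transcript had support level 1, the highest, and for 138 it had no level.

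An exon that bridges a whole intron was the exception among them. In 66 peaks (14.2%, 11.3 to 17.7) the noncoding exon ran from 1 coding exon through the complete intron into the next. In 221 (47.5%, 43.0 to 52.1) it was joined to the upstream exon and stopped within the intron, and in 37 (7.96%, 5.83 to 10.8) it began within the intron and ran into the downstream exon. A further 108 (23.2%, 19.6 to 27.3) lay in an exon wholly inside an intron, and 33 (7.10%, 5.10 to 9.80) outside every intron of the gene's coding transcripts. The types differed in this: of retained_intron peaks 63.6% (58.2 to 68.6) were in exons joined upstream, 61 of 321 in spanning exons and 14 of 321 in exons inside an intron, while of processed_transcript peaks 70.5% (62.2 to 77.6) were in exons inside an intron. In 166 of the 221 peaks joined upstream, the host exon was the last exon of its transcript, and in 52 it was the only one. In these cases the annotated model ends inside the intron. The counts by form are to be read beside the 19.6 Mb of noncoding-only exon. Of that sequence 8.99 Mb was joined upstream, 4.35 Mb spanned introns and 3.38 Mb was joined downstream. Exons inside an intron made up 2.12 Mb and those outside coding introns 0.800 Mb. Exons joined upstream were thus also the form with most sequence.

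**Figure D1:**
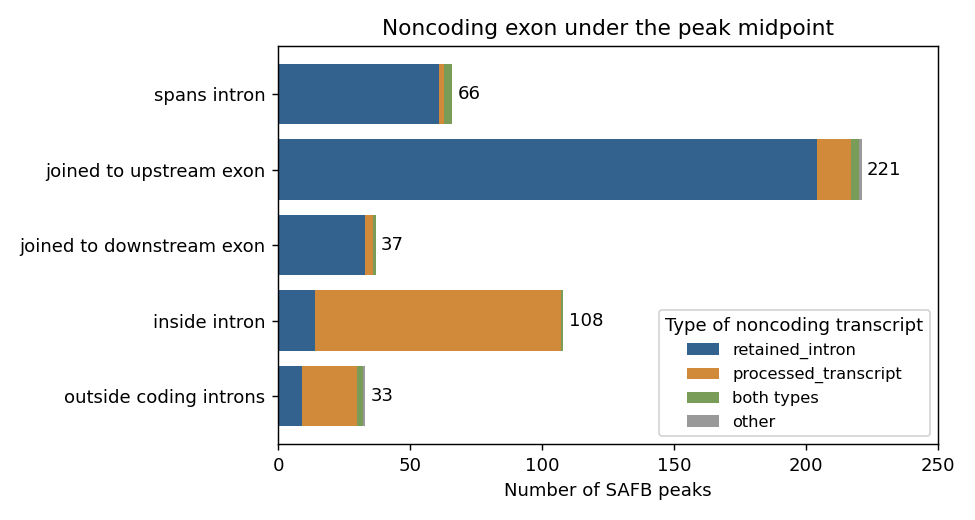
Number of SAFB peaks (horizontal axis) by the form of the noncoding exon under the peak midpoint (rows) and the type of the transcript (colours). Exons joined to the upstream coding exon held 221 peaks, most of them of retained_intron transcripts, and exons inside an intron held 108, most of them of processed_transcript.

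Over the 66 spanned introns with a peak, 64 began with GT and ended with AG and the other 2 began with GC; among the 10092 spanned introns without a peak, 97.6% were GT to AG. The introns with a peak were longer (median 1082 bases, quartiles 482 and 1604) than those without (276, quartiles 121 and 709). A longer intron offers more room for a midpoint, and the share with a peak rose with length, from 0.0992% of 4032 introns of up to 200 bases to 0.479% of 2714 from 201 to 500, 0.849% of 1650 from 501 to 1000, 1.82% of 1262 from 1001 to 2000 and 2.50% of 480 from 2001 to 5000; none of the 20 longer ones had a peak. Their median GC content was 45.6% with a peak and 51.3% without, and length was not held equal in this comparison.

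Safb held 4 of these peaks, the most of any gene, among 13 sense peaks. The peak at 56596160 to 56596590 lay in an exon joined to the upstream exon, in intron 5, and 84.5% of its bases were noncoding-only exon. The peak at 56597811 to 56598513 filled most of intron 6, with 99.3% of its 703 bases in it. Its neighbour at 56598908 to 56599662 covered intron 7 entirely and 353 bases of coding exon, and the peak at 56605273 to 56606211 ran over intron 19 with 526 of its 939 bases in coding exons. Safb2 (ENSMUSG00000042625.16, minus strand of the same chromosome) held 2 of its 10 sense peaks in exons joined upstream, in introns 11 and 6, 1771 and 668 bases wide. The related gene Sltm held none. The other 9 Safb peaks had their midpoint in coding sequence (5) or in an intron (4). In the map of Safb the first 3 noncoding-exon peaks lie side by side, from 53.8% to 67.3% along the gene, and 1 intronic and 3 coding-sequence peaks separate them from the fourth at 97.4%.

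**Figure D2:**
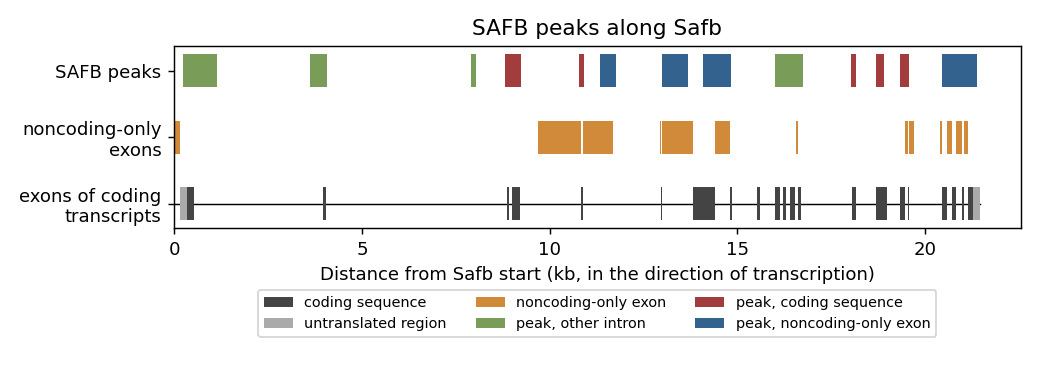
Safb drawn to scale in kb from its start, with exons of coding transcripts (bottom row), noncoding-only exons (middle row) and the 13 SAFB peaks coloured by where their midpoint lay (top row). The 4 peaks in noncoding-only exons lie between 53.8% and 97.4% along the gene, 3 of them side by side.

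A share of 3.49% of the 11992 protein-coding genes with any noncoding-only exon sequence held at least 1 of these peaks (418 genes). Of them 376 held 1 peak, 38 held 2, 3 held 3 and 1 held 4, and in 14 of the 42 genes with several the peaks shared 1 uninterrupted stretch of noncoding-only exon. Genes with more such sequence held them more often: in 4 groups of 2998 genes ordered by its length, 0.200% held a peak where it was shortest (up to 320 bases), then 1.27% and 3.57%, and 8.91% (7.94 to 9.98) where it was longest (2269 bases or more). The peaks lay on 20 chromosomes, 10 to 42 on each.

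Nbea, Ank2 and Ldlrad4 followed Safb with 3 peaks each. Nbea encodes the vesicle traffic protein neurobeachin, and its 3 peaks (146, 487 and 200 bases wide) lay side by side in a single-exon retained_intron transcript of 3860 bases within intron 41 of 57, on chromosome 3. Ank2 encodes the membrane adaptor ankyrin B. Its peaks of 1923, 400 and 814 bases lay in 3 separate exons joined upstream, from 0.159% to 83.8% along the gene, and were 3 of its 54 sense peaks. Ldlrad4, which encodes an inhibitor of TGF-beta signalling, had 3 peaks of 778, 305 and 76 bases beyond the introns of its coding transcripts, at 97.8% to 99.9% of the gene's length, in a processed_transcript isoform.

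Among gene groups, the splicing and RNA-processing lists held few such peaks. SR and SR-related proteins had 1 of 24 genes with noncoding-only exon sequence (4.17%), hnRNPs and other nuclear RNA-binding proteins 1 of 29 (3.45%), and spliceosome components 0 of 29, SR protein kinases 0 of 8, and RNA helicases 0 of 20. These counts stand near the 3.49% of all such genes or below it, and in lists this short 1 gene moves the share by several points. Chromatin regulators had 1 of 35, pluripotency factors 1 of 11 and the SAFB family 2 of 3. Ribosome biogenesis and nucleolar proteins (25 genes), RNA polymerase II and elongation factors (30), DNA replication and repair genes (27), ribosomal proteins (31) and markers of early differentiation and fibroblasts (15) had 0. The lists do not hold every gene of their kind, so a count of 0 is for the listed genes alone. Blm and Rad52, outside the repair list, and Snrnp40, outside the spliceosome list, held 1 peak each. Over all lists, 6 of 287 genes held such a peak (2.09%). The median length of noncoding-only exon per gene was 1.42 kb in the lists, against 0.859 kb over all genes.

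The list genes with a peak were few enough to describe in full. Tra2b held its only sense peak here, 844 bases wide on chromosome 16 (22258435 to 22259278), of which 397 bases were coding exon and 447 noncoding-only; the gene is known to restrain its own expression through an alternative exon near its start. Hnrnpl, a splicing regulator that binds CA-rich RNA, also held its only sense peak here. That peak was 2570 bases wide on chromosome 7 (28815092 to 28817661), in an exon joined upstream in intron 6 of 11. Crebbp, the histone acetyltransferase CBP, had a peak of 731 bases over the 281-base intron 29 of 30, with 391 bases in coding exons. Lin28b, which blocks the maturation of let-7 microRNAs, had a peak of 872 bases at the start of its 37705-base last intron, in the last exon of a processed_transcript isoform; its bases within that exon were 62.6% A and G.

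The widest peaks were of several forms. In Ccdc134 a peak of 3780 bases (chromosome 15, 82130944 to 82134723) covered a spanned intron of 2751 bases from end to end and was the gene's only sense peak. Git2, which encodes a GTPase-activating protein of ARF proteins, had a peak of 3494 bases wholly in a single-exon transcript of 7440 bases in intron 7 of 19. Sugp1, a splicing factor with SURP and G-patch domains, had its only sense peak (3010 bases) over intron 4 of 13. That peak covered both ends of the 2677-base intron, although the annotated isoform ends inside it. Ypel1 had a peak of 2838 bases, of which 19.9% was noncoding-only exon, and Rfx7, a transcription factor, one of 2795 bases in an exon inside intron 4; a peak in Cklf was as wide. Over long spanned introns, peaks were placed in Cep295, a centriole protein (4443-base intron, peak at its 5′ end), Ndfip2, an adaptor of NEDD4 ubiquitin ligases (4171 bases, peak of 1218 bases within it) and Bcdin3d, an RNA methyltransferase (3376 bases, the gene's only intron).

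The peaks were wider than intronic peaks. Their median width was 797 bases (quartiles 414 and 1357, binomial interval of the median 731 to 866), against 634 (621 to 646) for the 15805 peaks elsewhere in introns of protein-coding genes and 596 (567 to 625) for the 2503 of those within 1 kb of a coding exon. Peaks in coding sequence (734, 693 to 788) and in untranslated regions (810, 737 to 868) had medians with intervals overlapping theirs. Median widths in the 5 forms of host exon lay between 683 and 979 bases, with overlapping intervals.

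Many of the peaks ran past the annotated exon. Of all their bases (442.9 kb), 69.9% were noncoding-only exon, 7.75% coding exon and 22.4% neither. While 169 peaks (36.3%) lay wholly in noncoding-only exon, 246 (52.9%, 48.4 to 57.4) reached past annotated exons and 162 (34.8%, 30.7 to 39.3) reached a coding exon. A coding exon was reached by 75.8% (64.2 to 84.5) of the peaks over spanned introns and by 9.26% (5.11 to 16.2) of those in exons inside an intron. Among intronic peaks within 1 kb of a coding exon the share was 41.7%. In 27 of the 432 peaks within a coding transcript's intron (6.25%), a flanking coding exon held the midpoint of another peak. Of the host genes, 63.6% also held an intronic peak, 19.4% a coding sequence peak and 12.2% a peak in an untranslated region, and for 116 of the 465 peaks (24.9%) it was the only sense peak of its gene. The same shares over all 11992 genes with noncoding-only exon sequence, 5750 of which held any sense peak, are not given here.

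Noncoding-only exons held more peaks per length than other intron sequence. Other intron was taken from all protein-coding genes, and 11992 of these 21951 genes had noncoding-only exon. Genes were therefore not matched, here or in the comparisons by distance below. Over the 19.6 Mb of such exon the density was 23.7 peaks per Mb (exact Poisson interval 21.6 to 25.9), against 16.6 (16.4 to 16.9) over 951 Mb of other intron, a ratio of 1.43 (1.30 to 1.56). It was 42.0 (39.9 to 44.1) in coding sequence and 21.01 (19.6 to 22.5) in untranslated regions. By type, the density was 20.6 (18.4 to 22.9) in retained_intron exons and 38.5 (32.4 to 45.4) in processed_transcript exons. By form, exons inside an intron stood at 50.9 (41.7 to 61.4), exons outside coding introns at 41.2 (28.4 to 57.9), exons joined upstream at 24.6 (21.4 to 28.1), spanned introns at 15.2 (11.7 to 19.3) and exons joined downstream at 10.95 (7.71 to 15.1). The interval for spanned introns includes the 16.6 of other intron sequence, and the one for exons joined downstream lies below it. Distance from coding exons was not held equal in these comparisons by type and by form. Median distances of the midpoints were 231.5 bases over spanned introns and 679 in exons joined downstream, against 5691 for intronic peaks.

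Most noncoding-only exon lies close to coding exons, where peaks were sparser in introns too, so densities were also set side by side at equal distance from the nearest coding exon, a choice made after seeing the data. Within 200 bases noncoding-only exons held 13.5 peaks per Mb (10.7 to 16.9) and other introns 7.40 (6.76 to 8.09), a ratio of 1.82. From 201 to 500 bases the ratio was 1.84 and from 501 to 1000 it was 1.88. From 1001 to 5000 bases the densities were 35.4 (30.3 to 41.2) and 18.2 (17.7 to 18.7), a ratio of 1.95. Beyond that the ratios were 2.46 and 2.17, on 30 and 10 peaks; the interval of the last, 18.1 to 69.5 per Mb, begins close to the 17.4 (16.9 to 18.01) of other introns. The paired intervals did not overlap in any of the 6 bins. Matching on distance therefore gave larger ratios than the pooled 1.43 in every one of these bins, with genes not matched in any of them.

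**Figure D3:**
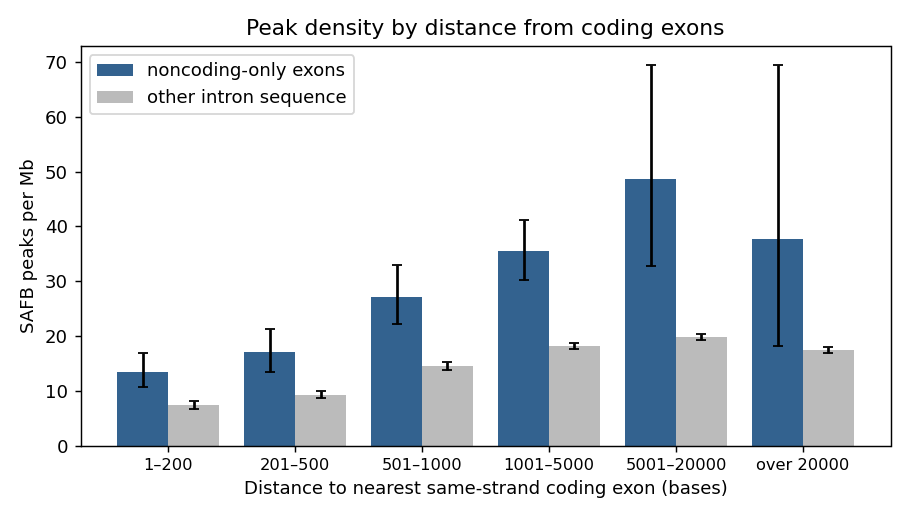
SAFB peaks per Mb of annotated sequence (vertical axis) by distance of the midpoint from the nearest same-strand coding exon (horizontal axis, bases), for noncoding-only exons (blue) and other intron sequence (grey); lines are exact 95% Poisson intervals, for counting error only. The blue bars are 1.82 to 2.46 times the grey ones, and the last blue bar rests on 10 peaks. Grey bars cover introns of all protein-coding genes, including those without noncoding-only exons.

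Close to the exon, the sides of the intron differed. Within 500 bases downstream of a coding exon, noncoding-only exons held 115 peaks, or 19.3 per Mb (15.9 to 23.1), and within 500 bases upstream of the next coding exon 39 peaks, or 9.13 per Mb (6.49 to 12.5). In other introns the 2 sides stood at 8.53 (7.86 to 9.24) and 8.28 (7.63 to 8.97). Within 500 bases the intervals of noncoding-only exons and other introns were thus separate downstream but overlapped upstream. From 501 to 1000 bases the noncoding-only densities were 28.0 downstream and 25.8 upstream, and from 1001 to 5000 bases 33.9 and 39.1, with overlapping intervals in both. Along the whole gene the peaks were spread about as the sequence is: each of 10 equal parts of the gene held between 7.53% and 12.5% of the peaks and between 8.03% and 12.5% of the noncoding-only bases. The last of these parts held 12.5% of the peaks and 9.74% of the bases. First introns of the transcript with the longest coding sequence held 15.1% (12.1 to 18.6) of the peaks and 13.1% of the bases, and last introns 5.16% (3.49 to 7.56) and 5.11%.

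Under the peaks the sequence of the noncoding exons was richer in purines than elsewhere in the same exons. Peak bases within the host exon were 52.8% A and G, against 49.3% in the noncoding-only part of those exons outside every peak, a difference of 3.52 percentage points; with noncoding-only peak bases alone it was 3.35. In 305 peaks at least 100 bases of both could be read, and the peak was higher in 229 (75.1%), with a mean difference of 3.15 ± 6.26 points (SD, n = 305 peaks, which are not replicates). The difference in noncoding-only bases was 2.00 points over spanned introns, 3.69 in exons joined upstream, 4.98 in exons joined downstream and 3.79 in exons inside an intron. It was -0.82 outside coding introns, where 9 of 20 peaks were higher. GC content of the noncoding-only bases was also higher under the peaks, 46.1% against 42.5%.

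**Figure D4:**
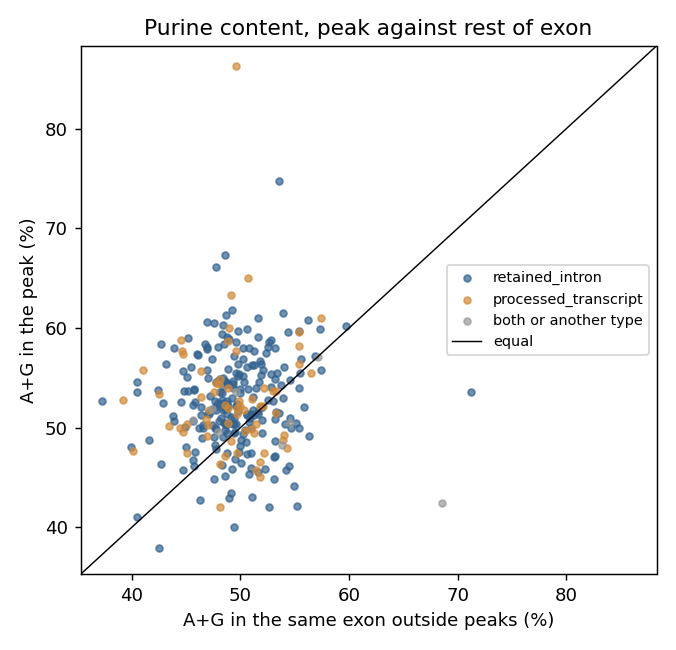
Percent A and G in the noncoding-only part of a peak (vertical axis) against the rest of the same exon outside every peak (horizontal axis), 1 point per peak for the 305 with at least 100 bases of both, coloured by transcript type; the line marks equal values. The peak is the higher of the pair in 229 of 305 points, and the highest point is Igsf11.

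Purine hexamers were also more frequent under the peaks. Those counted were the hexamer GAAGAA together with the hexamer AGAAGA and also the hexamer AAGAAG, which overlap one another in a repeat of AAG; overlapping matches were all counted, on the transcribed strand alone, since the peaks have a strand. In the 302.2 kb of the peaks' sequence that is noncoding-only exon within the host exon they occurred 3.50 times per kb, and in the rest of the same exons 1.58 per kb, a ratio of 2.22. Peak sequence outside that exon was not counted. Igsf11, an adhesion molecule of the immunoglobulin superfamily, had 169 of the 1059 hexamers in the 313 noncoding-only exon bases of a single peak of 355 bases. Those 313 bases were 86.3% A and G, and an Auts2 peak at the start of its gene had 22. Without both the ratio was 1.83 over all the peaks, and in exons inside an intron, which Igsf11 belongs to, it was 2.96 with that peak and 1.67 without. At least 1 of the 3 hexamers was found in 43.1% (38 to 48.3) of the 348 windows of 300 bases centred on a peak and lying within the host exon. Among 47207 windows of the same length tiled over noncoding-only exon outside peaks it was 25.1% (24.8 to 25.5).

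The 6 windows of 30 bases with most of these hexamers, at most 1 from a peak, chosen for their sequence, in noncoding-only exon, with 1 chromosome not searched and ties taken by gene identifier, are shown with the hexamers in capitals. Overlapping matches included, they hold 25 (Igsf11), 19 (Auts2), 11 (Tfe3), 9 (Rock2), 9 (4931406C07Rik) and 7 (Xpo6). The first 2 are AAG repeats throughout or nearly so, those of Rock2 and 4931406C07Rik are a run of A leading into such a repeat, and those of Tfe3 and Xpo6 hold interrupted stretches.
Igsf11, chr16:38923640-38923669, plus strand: AAGAAGAAGAAGAAGAAGAAGAAGAAGAAG
Auts2, chr5:132542992-132543021, minus strand: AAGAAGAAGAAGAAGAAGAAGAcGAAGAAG
Tfe3, chrX:7770241-7770270, plus strand: aaAAGAAGAAGAAaaagaggAGAAGAAGAA
Rock2, chr12:16944567-16944596, plus strand: aaaaaaaaaaaaaaaaAAGAAGAAGAAGAA
4931406C07Rik, chr9:15289002-15289031, minus strand: ttctactttaaaaaaaAAGAAGAAGAAGAA
Xpo6, chr7:126118824-126118853, minus strand: catagagactgAGAAGAAGAAagAGAAGAA

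The centres of peaks in named genes were more varied, and some are shown to set beside those windows. Among all the centres read, the Ank2 centre printed here was alone in holding any of the 3 hexamers. The Dclre1b centre, of a peak of 115 bases with 66.1% A and G, is mostly purine without holding any of them. The Safb and Tra2b centres hold none either. The part of the Tra2b peak within its host exon had 56.3% A and G and 34.6% GC. Its midpoint lay 9 bases from an exon of another coding transcript, so the bases printed for its centre reach into that exon.
Dclre1b, chr3:103804711-103804740, minus strand: agggatcagcaaaagaaaagctgaagagga
Safb intron 6, chr17:56598148-56598177, plus strand: atgacatgactggatccccccgaagaggag
Tra2b intron 1, chr16:22258842-22258871, minus strand: aaattaggtaataattctaattttaactgc
Ank2, chr3:127015444-127015473, minus strand: tagctcactggtGAAGAAcgcttgctgctc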

How the data were processed

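The file analysed is 1 peak list without a header. Its score, as deposited by the authors, is 500 in every peak and was not used; position and strand were. Per the submitters' processing notes, the build is mm10 and STAR, Subread and featureCounts were used; peak calling is not given in the sources used here. Starts were taken as counted from 0. GENCODE M21 (GRCm38) gave genes, transcripts and sequences, which are those of the reference strain while the cells are CAST/B6. Transcripts with a coding sequence, nonsense-mediated decay included, counted as coding. Where several noncoding exons held a midpoint, an exon spanning an intron was preferred, then joined, then inside. Intervals are 95% Wilson (shares), exact Poisson (densities) and binomial (medians), computed with Python 3.11.15 and SciPy 1.17.1; no test was run. Placement was tested on simulated data, positions drawn from the same intervals that define each class. That checks the lookup alone, not the annotation or how starts are counted. Named genes hold at least 3 of the peaks, the 5 widest or the 5 longest spanned introns, or lead a list, as does the SAFB family; Auts2, Igsf11, Tfe3, Rock2, 4931406C07Rik, Xpo6, Cklf, Ensa, Gm4707, Ppp1r10 and K230010J24Rik were named after their values were seen. Blm, Rad52 and Snrnp40 were also named after their values were seen. The peaks, 13 gene lists and alternatives were chosen with earlier results of these data known.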

Additional observations from a re-analysis of the deposited data

How the results depend on the processing

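Counted with transcripts of support level 1 to 3 alone, 298 peaks in 271 genes remained in the definition (11.1% of exonic peaks), and with peaks at least as wide as the list median, 300 in 278 genes; both alternatives admit fewer transcripts or peaks by construction. The wider peaks had a median of 1107 bases, reached a coding exon in 44.7%, and gave 15.3 peaks per Mb, 1.76 times the density of other introns, and 2.19 times within 1 kb of a coding exon against 1.70 for all widths, a setting chosen after seeing the data. Placing peaks by an overlap of at least 50% gave 14.95% of exonic peaks, 73.4% of them retained_intron alone, 20.5 per Mb and a ratio of 1.22 to other introns; the cause was not tested. Treating decay transcripts as noncoding gave 18.1% of exonic peaks and 62.0% retained_intron alone. The share spanning an intron and the position along the gene stayed within their intervals under the alternatives run, and the excess of A and G lay between 3.19 and 3.71 points. The ratio within 1 kb was not run with the 50% overlap. No paired analysis was possible because the list has no value per library, and leaving out a replicate was not possible for the same reason.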

Other observations

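Small RNA genes within introns were rarely under these peaks. A same-strand gene of a microRNA, small nucleolar, small Cajal body or small nuclear RNA overlapped 2 of the 465 peaks (0.430%, interval 0.118 to 1.55), namely Mir1894 in Ppp1r10 and Gm23027 in K230010J24Rik, and 25 of the 15805 other intronic peaks (0.158%, 0.107 to 0.233). A gene on the opposite strand covered the midpoint of 47 peaks (10.1%), and another gene of the same strand that of 20 (4.30%). The next peak of the same strand lay within 1 kb of 114 of the peaks (24.5%), and of 24.9% of other intronic peaks. That share was lower near exons, at 18.3% for intronic peaks within 1 kb of a coding exon and 14.6% for coding sequence peaks. Over spanned introns it was 5 of 66 peaks (7.58%).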
